A study of Mus musculus with 40 samples.

Results

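The vascular endothelial growth factor (VEGF) ligands and receptors were followed through 40 mouse retinas from a model of oxygen-induced retinopathy (OIR). They were taken by symbol, and all 9 named genes were found among the 42037 gene symbols of the expression tables: the ligands Vegfa, Vegfb, Pgf and Vegfc, the receptors Kdr, Flt1 and Flt4, and the co-receptors Nrp1 and Nrp2. All mice were C57BL/6J, and pups of the OIR groups were kept in 75% oxygen between postnatal days 7 and 12 and then returned to room air. At day 14 their eyes received 1 µl of antibody into the vitreous. The injected antibodies were anti-VEGFA (clone B20.4.1) at 0.2 µg/µl, anti-ANG2 (clone LC10, against angiopoietin 2) at 0.2 µg/µl, a bispecific antibody joining both specificities at 0.4 µg/µl, or control IgG at 0.4 µg/µl. Control retinas came from mice without OIR, and the labels do not say whether those eyes were injected. Each of these 5 conditions was sampled at day 17 (P17) and day 19 (P19) with 4 libraries, each made from 1 whole retina. Nothing in the labels says which retinas share a mouse or a litter, so p-values measure the spread between these retinas.

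VEGF ligands are secreted dimers that act on receptor tyrosine kinases, mainly on endothelium. VEGFA binds the signalling receptor VEGFR2, encoded by Kdr, and also VEGFR1, encoded by Flt1, which binds it tightly, signals weakly and has a soluble form that acts as a decoy. In retina short of oxygen, hypoxia-inducible factor (HIF) raises Vegfa transcription in glia and neurons, and VEGFA drives the growth of new vessels. The antibodies bind the VEGFA and ANG2 proteins, so the transcript levels given here do not measure how well either protein was neutralised.

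Total expected counts ran between 9160000 and 25800000 per library. The Müller glia gene Rlbp1, a marker of retina, lay between 444 and 1126 counts scaled to library size (CPM) over all 40 libraries. Endothelial transcripts were scarce: Pecam1 lay between 0.439 and 8.30 CPM, and Cdh5 between 0 and 2.77 CPM. Fewer cells of a type and less RNA per cell cannot be told apart in whole retina. The Y-linked gene Ddx3y was at 0 CPM in all 4 retinas with anti-ANG2 at P17 and with the bispecific antibody at P19. It was at 60.3 CPM or more in all 4 with anti-VEGFA at P17 and with IgG at P19. Xist, which is transcribed in female cells, ran the other way. It lay between 629 and 764 CPM with anti-ANG2 at P17 and between 235 and 783 CPM with the bispecific antibody at P19. With anti-VEGFA at P17 it lay between 0 and 1.06 CPM, and with IgG at P19 between 0 and 2.21 CPM. Sex and antibody therefore cannot be told apart between anti-VEGFA and anti-ANG2 at P17, or between the bispecific antibody and IgG at P19. Libraries also differed in how the authors' length-scaled transcript values (TPM) related to CPM. The TPM of Vegfa per CPM ran between 0.248 in anti-ANG2 P19 replicate 1 and 0.696 in control P17 replicate 3, and the same 2 libraries were lowest and highest for Vegfb, Kdr and Flt1. Samples are therefore compared in CPM scaled by trimmed mean of M-values, and genes with one another in TPM, which divides by transcript length.

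Since Vegfa is known as a target of HIF, the letters just before its first annotated start are shown beside those of its receptor gene Kdr. Both are 250 bases of RefSeq sequence on the minus strand of GRCm38.p6, for Vegfa chr17:46032378-46032627 and for Kdr chr5:75978456-75978705, and capitals mark 2 motifs searched on both strands. The first, ACGTG, is the core of HIF response elements, and the second is the core variant that begins with another base, GCGTG.
Vegfa: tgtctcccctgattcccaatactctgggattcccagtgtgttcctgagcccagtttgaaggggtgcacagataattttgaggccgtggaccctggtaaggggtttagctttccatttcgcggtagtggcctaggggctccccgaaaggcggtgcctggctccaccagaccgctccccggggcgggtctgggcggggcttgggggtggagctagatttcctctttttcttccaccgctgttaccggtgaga
Kdr: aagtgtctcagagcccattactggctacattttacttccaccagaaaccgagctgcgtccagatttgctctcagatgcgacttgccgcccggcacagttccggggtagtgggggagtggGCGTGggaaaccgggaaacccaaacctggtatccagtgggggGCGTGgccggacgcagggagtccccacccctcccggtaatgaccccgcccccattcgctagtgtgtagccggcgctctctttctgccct
No capital letters stand in the Vegfa stretch, whereas the Kdr stretch holds GCGTG 2 times, beginning 131 and 89 bases before the start. Searched the same way, GCGTG also stands before a RefSeq start of Vegfb, Pgf, Flt1, Nrp1 and Nrp2. Neither motif stands before those of Vegfc and Flt4. A second Vegfa start in RefSeq, inside the gene, has GCGTG beginning 218 bases before it and, on the other strand, the first motif beginning 211 bases before it. Of 32851 RefSeq windows of 300 bases (250 before and 50 after a start), 43.8% hold at least 1 of these motifs and 19.6% hold the first. A match in so short a motif is a description of the letters and no sign that a factor binds there. Equally, a lack of matches in 250 bases says nothing of sites farther from the start. The 9 genes lie on 7 chromosomes in the GENCODE annotation of GRCm38: Vegfa spans 17:46016993-46032369 with 8 protein-coding transcripts, Kdr spans 5:75932827-75978458 with 1, and Flt1 spans 5:147561604-147726011 with 2. Counts are summed over each gene, so VEGFA isoforms, and the soluble and membrane forms of Flt1, are not separated.

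Averaged over the 40 retinas, of which 32 had OIR, Vegfa stood at 78.5 ± 33.3 TPM (SD, n = 40) and Vegfb at 58.4 ± 10.02 TPM. Their order was the reverse in 3 groups. In anti-ANG2 retinas at P19 Vegfb averaged 50.8 ± 8.47 TPM and Vegfa 47.5 ± 20.4 TPM, in P17 controls Vegfb averaged 68.4 ± 6.93 TPM and Vegfa 53.7 ± 9.57 TPM, and in P19 controls Vegfb averaged 67.5 ± 6.94 TPM and Vegfa 47.7 ± 7.36 TPM (SD, n = 4 each). Vegfb encodes a ligand of VEGFR1 and NRP1 but not of VEGFR2. Of the receptors, Kdr stood at 22.1 ± 8.31 TPM and Flt1 at 9.73 ± 3.16 TPM. The co-receptors, which present VEGF to the receptors and also bind semaphorins, stood at 3.77 ± 1.41 TPM for Nrp1 and 2.50 ± 1.26 TPM for Nrp2. Pgf, which encodes placental growth factor, a ligand of VEGFR1, averaged 2.94 ± 1.73 TPM. Vegfc, the ligand known for lymphatic growth, averaged 1.997 ± 1.17 TPM and its receptor Flt4 (VEGFR3) 0.442 ± 0.349 TPM. Flt4 had no counts in 3 retinas and Vegfc in 1. At their depth a count of 0 allows up to 3 counts, or between 0.168 and 0.204 CPM, a limit that covers counting error only. Over all 40 retinas the SDs of Vegfa and Vegfb overlap, as do those of Nrp1, Pgf, Nrp2 and Vegfc. These SDs pool all groups, so they do not resolve the order within these runs. Within single groups Vegfa and Vegfb could stand apart. In IgG retinas at P17 Vegfa ran between 76.1 and 117.6 TPM and Vegfb between 46.99 and 58.97 TPM. In P19 controls Vegfa ran between 38.7 and 56.7 TPM and Vegfb between 57.55 and 73.6 TPM. In P17 controls their ranges overlapped.

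**Figure D1:**
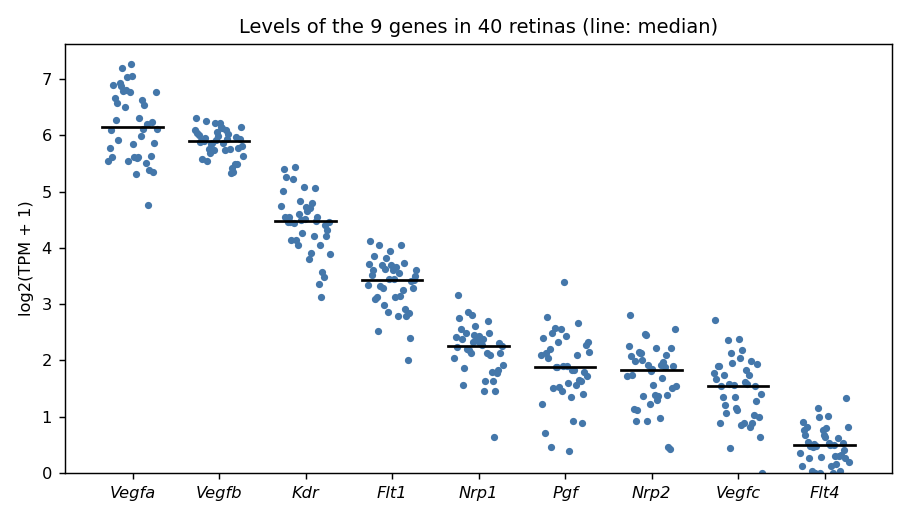
Levels of the 9 genes as log2(TPM + 1) in all 40 retinas, 1 point per retina, with a line at each median. Vegfa and Vegfb lie highest, with median levels of 70.3 and 58.9 TPM, and Flt4 lies near 0.

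Vegfa was the only member called between OIR retinas with control IgG and control retinas, at both ages. At P17 its level was 251, 244, 199 and 218 CPM in OIR retinas with IgG, against 94.3, 107, 96.3 and 91.0 CPM in control retinas. All 4 OIR retinas lay above all 4 controls, in CPM and in TPM. The difference was 2.35-fold (95% interval 1.78 to 3.09) with an edgeR quasi-likelihood adjusted p of 0.000158, adjusted by Benjamini-Hochberg over 23495 tested genes. At P17, 1 of the 9 genes was called at an adjusted p under 0.05, set against 2.36% of all tested genes. With limma-trend on log2(TPM + 1), Vegfa was 0.84 higher on the log2 scale in OIR retinas but not called (adjusted p = 0.120, within a range over all alternatives of 1.63e-06 to 0.120). On that scale the median of all genes stood at -0.22, against -0.05 in the count fit.

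At P19 Vegfa measured 135, 178, 152 and 204 CPM in OIR retinas with IgG, and 109, 106, 84.0 and 95.04 CPM in control retinas. The groups did not overlap in CPM but overlapped in TPM, where OIR retinas ran between 48.1 and 98.2 and control retinas between 38.7 and 56.7. The difference was 1.70-fold (95% interval 1.29 to 2.24), just under the threshold with an edgeR adjusted p of 0.0473. Again 1 of 9 members was called, set against 0.919% of tested genes. The call was lost without any 1 of the 8 libraries (edgeR adjusted p between 0.0620 and 0.164), and over all alternatives the adjusted p lay between 0.00977 and 0.442. Retinas of the 2 groups also differed in Y-linked counts: Ddx3y lay between 60.3 and 68.1 CPM in all 4 IgG retinas and between 0 and 71.5 CPM in controls. With a Y-linked covariate Vegfa was 0.73 higher on the log2 scale with an edgeR adjusted p of 0.1003.

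Tissue other than neural retina was also uneven at P17. Pigment epithelium markers, from cells that make Vegfa themselves, summed to between 996 and 1943 CPM in IgG retinas and between 319 and 622 CPM in controls, and 3 of 12 were called higher. Rpe65, the retinoid isomerase of those cells, averaged 96.5 ± 32.2 CPM in OIR retinas with IgG and 20.8 ± 9.48 CPM in control retinas (SD, n = 4 each). Lens markers summed to between 20.5 and 4230 CPM in IgG retinas and between 14.5 and 20.4 CPM in controls, with 1 of 20 called. Within a fit that carried pigment epithelium and lens markers as covariates, Vegfa was 1.29 higher on the log2 scale in OIR retinas with IgG at P17 (edgeR adjusted p = 0.00341) and 0.77 higher at P19 (edgeR adjusted p = 0.0447). Since the pigment epithelium sums did not overlap at P17, that tissue and OIR cannot be told apart there by this fit. At P19 no pigment epithelium marker was called (0 of 12), and the list summed to between 1067 and 1449 CPM in IgG retinas and between 508 and 1454 CPM in controls. Microglia and macrophage markers were called higher in 12 of 16 at P17 and 11 of 16 at P19. At P17 they summed to between 397 and 639 CPM in IgG retinas and between 127 and 213 CPM in controls, and their part in the Vegfa difference was not tested.

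**Figure D2:**
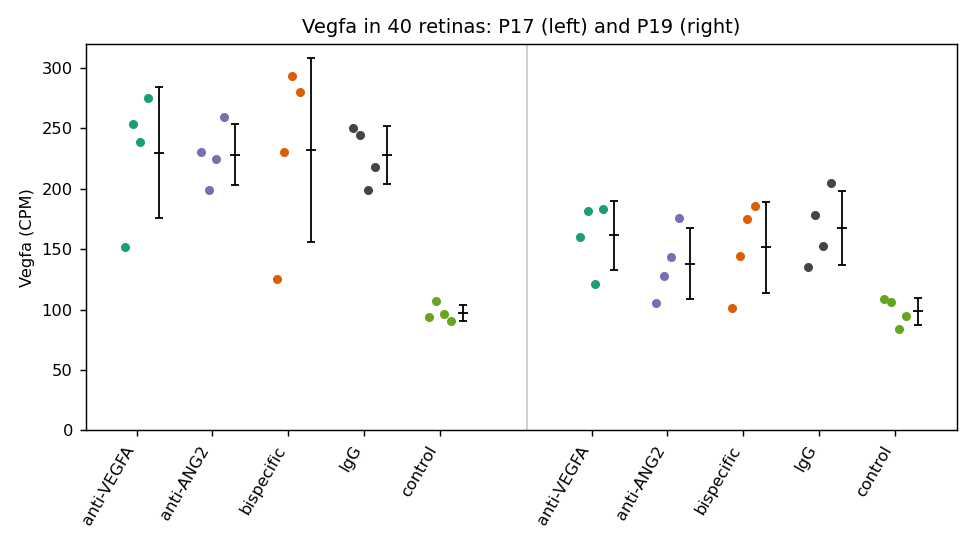
Vegfa in CPM for each of the 40 retinas, 1 point per retina, with the mean and SD of each group of 4 in black. The 16 OIR retinas at P17 lie above all 4 P17 controls, and 14 of 16 OIR retinas at P19 lie above all P19 controls. In TPM, which is not plotted, these counts are 14 of 16 at P17 and 10 of 16 at P19.

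Retinas treated with a blocking antibody also held more Vegfa transcript than controls at P17. The level was 151, 253, 239 and 275 CPM with anti-VEGFA, 231, 199, 225 and 259 CPM with anti-ANG2, and 125, 231, 294 and 280 CPM with the bispecific antibody. Replicate 1 was the lowest library of the anti-VEGFA and of the bispecific group, and both still exceeded the highest control, at 107 CPM. Groups without overlap were found for 6.51% of tested genes with anti-VEGFA, 7.98% with anti-ANG2 and 7.88% with the bispecific antibody. Against controls, the folds were 2.37 with anti-VEGFA (95% interval 1.79 to 3.12, edgeR adjusted p = 0.000409), 2.35 with anti-ANG2 (1.78 to 3.10, edgeR adjusted p = 0.000283) and 2.39 with the bispecific antibody (1.81 to 3.15, edgeR adjusted p = 0.000135). Vegfa was the 1 member of 9 called in each, set against 0.643% of tested genes with anti-VEGFA, 0.953% with anti-ANG2 and 0.834% with the bispecific antibody. These comparisons share the 4 control retinas with one another and with the IgG comparison. None of the 3 was called with limma-trend on log2(TPM + 1), where the adjusted p lay between 0.0748 and 0.161. With a Y-linked covariate all 3 were called by edgeR, at log2 differences of 1.21, 1.34 and 1.27.

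At P19 the Vegfa folds of treated retinas over controls were smaller. Vegfa stood at 160, 181, 121 and 183 CPM with anti-VEGFA, at 105, 128, 143 and 176 CPM with anti-ANG2, and at 101, 144, 175 and 185 CPM with the bispecific antibody. All 4 anti-VEGFA retinas exceeded all 4 controls, a lack of overlap seen for 12% of tested genes, while 1 anti-ANG2 and 1 bispecific retina fell within the control range. The fold against control was 1.64 with anti-VEGFA (95% interval 1.24 to 2.16, edgeR adjusted p = 0.0298), a call lost without any 1 of 5 libraries, namely control replicates 2, 3 and 4 and anti-VEGFA replicates 2 and 4 (adjusted p between 0.0625 and 0.115). On the TPM scale the anti-ANG2 difference had the other sign, at -0.09 with limma-trend on log2(TPM + 1) (adjusted p = 0.865), with a mean of 47.5 TPM in anti-ANG2 retinas and 47.7 TPM in controls. In the count fit the fold was 1.40 with anti-ANG2 (1.06 to 1.85, edgeR adjusted p = 0.118) and 1.54 with the bispecific antibody (1.17 to 2.03, edgeR adjusted p = 0.164, DESeq2 adjusted p = 0.0447, within a range of 0.0447 to 0.576). The members called were 1 of 9 with anti-VEGFA, set against 4.73% of tested genes, 0 of 9 with anti-ANG2, set against 10.7%, and 0 of 9 with the bispecific antibody, set against 0.443%. In each of these last 2 comparisons 2 members had an unadjusted p under 0.05: Vegfa in both, Nrp1 with anti-ANG2 and Vegfc with the bispecific antibody. Of 23495 tested genes, 5246 had such a p with anti-ANG2 and 2529 with the bispecific antibody. On the TPM scale, limma-trend called 5 other member differences at P19 and not Vegfa: Flt1, Kdr, Nrp1 and Vegfb with anti-ANG2 (log2 differences of -0.80, -0.83, -0.92 and -0.41) and Vegfb with anti-VEGFA (-0.63). Calls were common in that fit, at 27.1% of tested genes with anti-ANG2 and 8.77% with anti-VEGFA, and the median of all genes was -0.31 with anti-ANG2 and -0.13 with anti-VEGFA.

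Ranked by mean CPM, the 10 groups fell into an upper run at P17, a middle run at P19 and the controls. Vegfa averaged 232 ± 76.4 CPM with the bispecific antibody, 230 ± 54.2 CPM with anti-VEGFA, 228 ± 24.9 CPM with anti-ANG2 and 228 ± 23.9 CPM with IgG at P17. The P19 groups followed at 168 ± 30.4 CPM with IgG, 162 ± 28.7 CPM with anti-VEGFA, 152 ± 37.98 CPM with the bispecific antibody and 138 ± 29.6 CPM with anti-ANG2. Controls were last, at 98.6 ± 11.4 CPM at P19 and 97.1 ± 6.89 CPM at P17 (SD, n = 4 in each group). In 7 of the 9 steps between neighbours the gap was smaller than the larger SD. The 2 wider steps lay between IgG at P17 and IgG at P19, and between anti-ANG2 at P19 and controls at P19, and the libraries of all 9 neighbour pairs overlapped. In mean TPM anti-ANG2 at P19 was instead the lowest of the 10 groups, at 47.5 TPM, against 47.7 TPM in P19 controls and 53.7 TPM in P17 controls.

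Among the other ligands, Pgf was higher at P17 in every OIR retina with IgG than in any control, without passing the test. It measured 3.30, 6.24, 3.19 and 4.15 CPM in OIR retinas with IgG, and 2.62, 1.11, 2.61 and 0.539 CPM in control retinas. The fold was 2.45 (95% interval 1.01 to 5.96, unadjusted p = 0.0494, edgeR adjusted p = 0.315), and in TPM the groups overlapped. In all, 2 of 9 members (Vegfa and Pgf) had groups that did not overlap at P17, set against 11.4% of tested genes, and 1 of 9 (Vegfa) at P19, set against 11% of tested genes. At P19 Pgf averaged 1.95 ± 0.708 CPM in IgG retinas and 2.22 ± 1.69 CPM in controls (SD, n = 4 each), at 0.884-fold (0.363 to 2.15). The difference of the Pgf effect between the ages was -1.47 on the log2 scale (edgeR adjusted p = 0.952).

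Vegfb differed little: it averaged 40.1 ± 2.87 CPM in IgG retinas and 39.3 ± 8.76 CPM in controls at P17, at 1.02-fold (0.784 to 1.33). At P19 it averaged 45.7 ± 3.08 CPM in IgG retinas and 42.9 ± 4.81 CPM in controls, at 1.06-fold (0.819 to 1.38), so these intervals leave out a change as large as that of Vegfa at P17. Vegfc averaged 2.22 ± 0.851 CPM in IgG retinas and 3.37 ± 1.91 CPM in controls at P17, at 0.657-fold (0.259 to 1.66), and its P19 fold was 0.741 (0.292 to 1.88). Vegfc had a median of 41.9 counts per library.

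The receptor transcripts did not pass the test in OIR. Kdr measured 152, 99.1, 112 and 95.8 CPM in P17 retinas with IgG, and 107, 123, 115 and 83.8 CPM in P17 controls. The ranges overlapped, at 1.07-fold (95% interval 0.782 to 1.46), and at P19 the fold was 1.18 (0.863 to 1.61). Flt1 measured 40.3, 50.4, 33.6 and 32.2 CPM in P17 retinas with IgG, and 36.4, 42.6, 36.3 and 40.9 CPM in P17 controls. Its fold was 1.00 (0.770 to 1.303) at P17 and 1.06 (0.811 to 1.37) at P19, so both receptors have intervals below the 2.35-fold of Vegfa. Flt4, with a median of 29 counts per library, stood at 1.41-fold (0.345 to 5.81) at P17 and 0.383-fold (0.0922 to 1.58) at P19. Nrp1 stood at 1.10-fold (0.707 to 1.70) at P17 and 0.871-fold (0.560 to 1.35) at P19. Nrp2 averaged 7.91 ± 4.15 CPM in IgG retinas and 13.1 ± 2.94 CPM in controls at P17, at 0.607-fold (0.331 to 1.11, edgeR adjusted p = 0.438), and its P19 fold was 0.731 (0.398 to 1.34). Over the 9 genes the median log2 difference was 0.10 at P17 and -0.18 at P19, beside -0.05 over all tested genes at both ages.

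**Figure D3:**
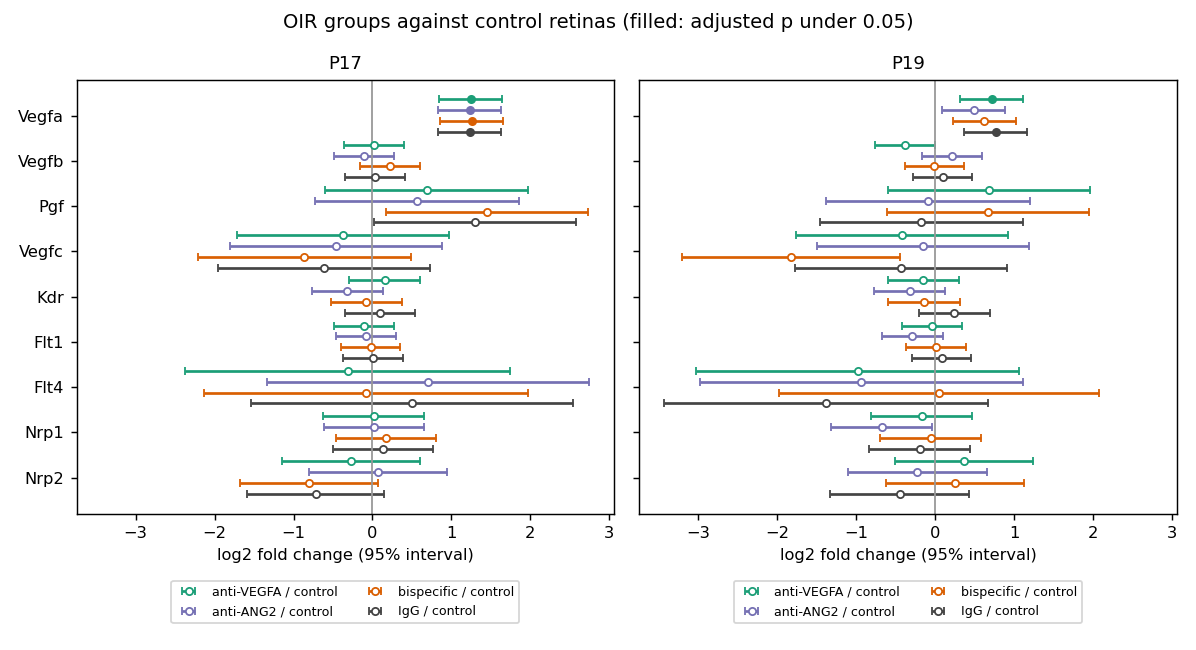
Log2 fold change of each of the 9 genes in 4 OIR groups against control retinas at P17 and P19, with 95% intervals, filled where the adjusted p is under 0.05. Vegfa lies right of 0 in all 8 comparisons, from 1.40-fold to 2.39-fold, and is filled in 6, while no other gene is filled.

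**Figure D4:**
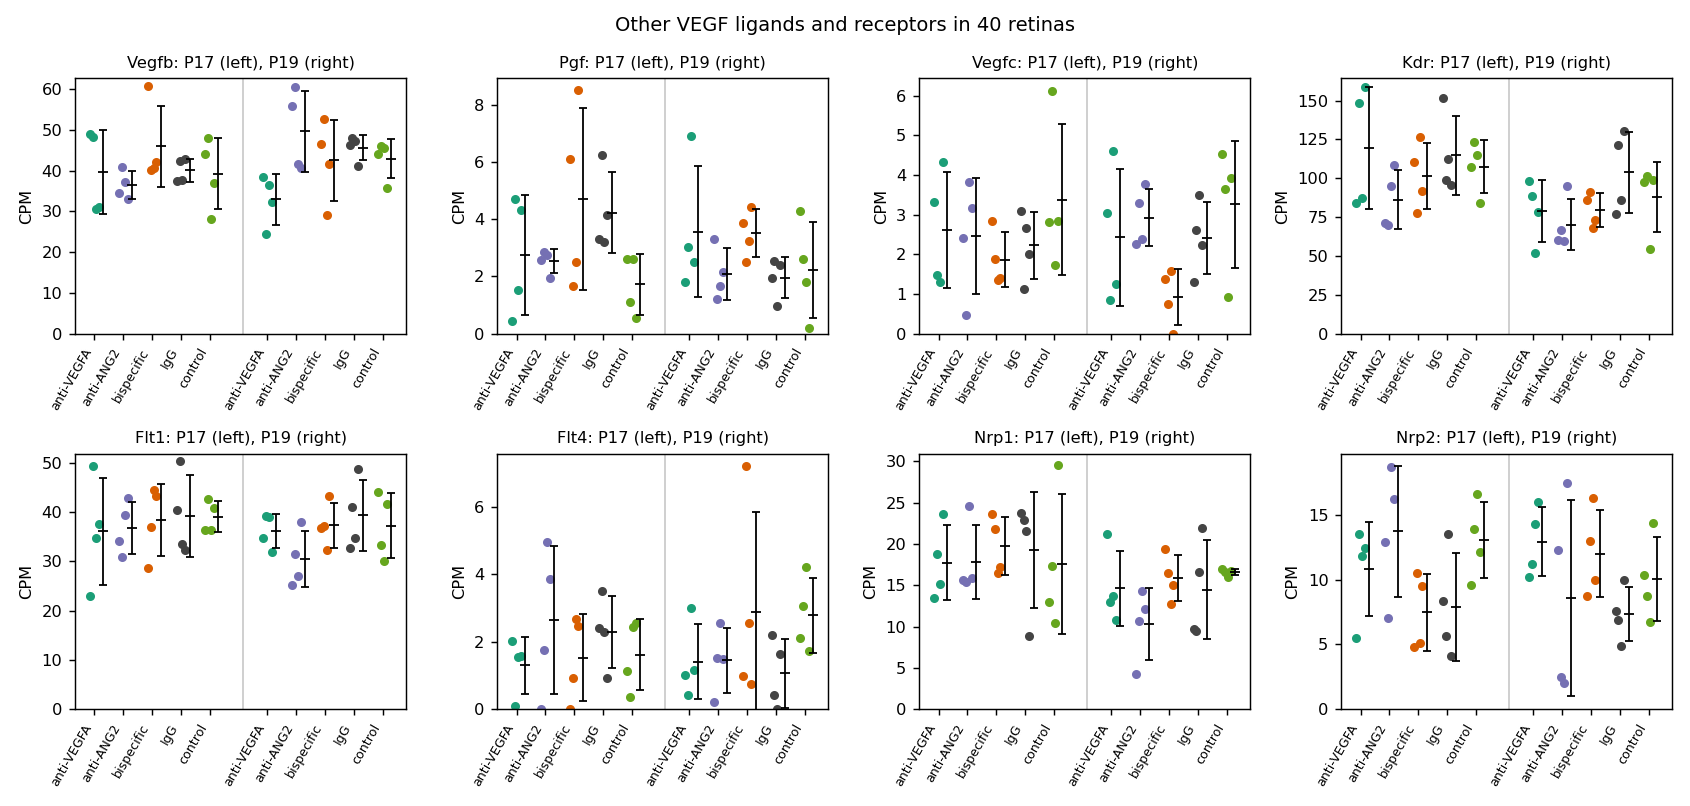
CPM of the 8 other genes in the 40 retinas, 1 point per retina, with the mean and SD of each group of 4 in black (bars that reach below 0 are cut). For each gene, groups that neighbour each other in order of mean overlap, from Kdr near 100 CPM to Flt4 and Vegfc at a few CPM.

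Genes around the VEGF pathway, and the cell markers, were read from lists chosen with earlier results of these data known. Their counts describe the listed genes and are no independent test. Of 30 other VEGF ligand and signalling genes, among them the ligand Vegfd, the phospholipase Plcg1 and the kinase Src, 0 were called at P17 and 0 at P19 in OIR retinas with IgG against controls, with median log2 differences of 0.09 and -0.04. Of 23 tested genes known to respond to VEGF in endothelium, 1 rose at P17 and 2 rose at P19. Apln, which encodes the tip cell peptide apelin, averaged 50.6 ± 8.20 CPM in OIR retinas with IgG and 4.09 ± 1.52 CPM in control retinas at P17 (12.2-fold, edgeR adjusted p = 8.26e-09). At P19 it averaged 26.2 ± 5.05 CPM in IgG retinas and 3.95 ± 1.92 CPM in controls (6.67-fold, edgeR adjusted p = 3.1e-06). The second P19 gene, the adhesion molecule Vcam1, stood at 2.17-fold (edgeR adjusted p = 0.0492).

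Of 21 HIF targets other than Vegfa, 10 were called higher at P17 and 0 lower, with a list median of 0.69 on the log2 scale. This list too was chosen with earlier results known, so the count only describes these genes. Ndufa4l2, a mitochondrial protein induced by hypoxia, averaged 80.3 ± 12.04 CPM in OIR retinas with IgG and 7.32 ± 1.41 CPM in controls at P17 (10.9-fold, edgeR adjusted p = 1.12e-11). Adm, the vasoactive peptide adrenomedullin, was at 20.7-fold, Bnip3, a mitophagy receptor, at 2.50-fold, and Slc16a3, a lactate exporter, at 2.46-fold. At P19 only Ndufa4l2 (22.6-fold) and Adm (15.4-fold) were called of the 21, and the list median was 0.17. Of 9 HIF subunits and oxygen sensors, 3 were called higher at P17 and 0 at P19. The 3 were the prolyl hydroxylases Egln3 (5.01-fold, also on the target list) and Egln1 (1.71-fold) and Vhl (1.58-fold), part of the ubiquitin ligase that marks HIF for destruction.

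Endothelial markers, from cells in which Kdr and Flt1 act, had list medians of 0.56 at P17 and 0.70 at P19 on the log2 scale. At P17, 2 of 20 were called, Egfl7 at 2.08-fold and Cd34 at 2.21-fold. At P19 another 2 were called, Emcn at 7.12-fold and Cldn5 at 2.40-fold. Not every marker was higher: Pecam1 averaged 1.73 ± 0.631 CPM in IgG retinas and 2.32 ± 0.561 CPM in controls at P19. At P17 it averaged 5.23 ± 1.01 CPM in IgG retinas and 3.51 ± 1.15 CPM in controls. The summed level of the 20 markers was between 91.3 and 129 CPM in IgG retinas and between 65.9 and 89.4 CPM in controls at P17. At P19 it was between 91.6 and 124 CPM in IgG retinas and between 57.2 and 78.6 CPM in controls. Kdr and Flt1 did not pass the test at either age. Kdr alone averaged 104 ± 26.2 CPM in IgG retinas and 88.1 ± 22.65 CPM in controls at P19, near or above the sum of all 20 markers. Which cells held the Kdr transcripts was not tested, so these values do not measure receptors in endothelium. Pericyte and smooth muscle markers were called higher in 3 of 12 at P17 (Acta2, Higd1b and Rgs5) and in 2 of 12 at P19 (Higd1b and Rgs5). Of these 12 markers, 6 had a positive estimate at P17 and 7 at P19, and the list medians were -0.0026 and 0.49 on the log2 scale. Müller glia and astrocyte markers were called higher in 2 of 13 at P17 (Gfap and Vim) and 1 of 13 at P19 (Apoe), with list medians of 0.38 and 0.50. Red blood cell markers were called in 4 of 5 at P17 and 0 of 5 at P19, and ganglion, amacrine and horizontal cell markers in 0 of 14 at both ages.

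No antibody changed any of the 9 transcripts past the threshold when set against IgG at the same age. The count was 0 of 9 in each of the 6 comparisons with edgeR, and also 0 of 9 in each with DESeq2 and with limma-trend on TPM. With edgeR, 0% of tested genes were called with anti-VEGFA at P17, 0% with anti-ANG2 at P17, 0% with the bispecific antibody at P17 and 0% with anti-VEGFA at P19, against 0.0979% with anti-ANG2 at P19 and 0.0468% with the bispecific antibody at P19. Over all tested genes, between 921 and 2935 had an unadjusted p under 0.05, DESeq2 called between 2 and 557, and limma-trend between 0 and 578. The bispecific antibody and IgG were given at 0.4 µg/µl and the other antibodies at 0.2 µg/µl, so the single antibodies were not matched to IgG in dose.

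For Vegfa, the transcript of the antibody's own target, the P17 folds against IgG were 1.01 with anti-VEGFA (95% interval 0.765 to 1.33), 1.00 with anti-ANG2 (0.761 to 1.32) and 1.02 with the bispecific antibody (0.774 to 1.34). At P19 they were 0.964 with anti-VEGFA (0.731 to 1.27), 0.823 with anti-ANG2 (0.625 to 1.09) and 0.904 with the bispecific antibody (0.686 to 1.19). The intervals leave out a fall to 0.6-fold or lower, but not smaller shifts in either direction.

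Among uncalled differences from IgG, 2 had an unadjusted p under 0.05. Vegfb measured 38.4, 24.5, 36.4 and 32.3 CPM with anti-VEGFA at P19, and 46.2, 48.0, 47.2 and 41.2 CPM with IgG at P19. All 4 anti-VEGFA retinas lay below all 4 IgG retinas, at 0.722-fold (95% interval 0.555 to 0.939, unadjusted p = 0.0164, edgeR adjusted p = 0.366). Kdr measured 60.3, 66.4, 59.4 and 94.8 CPM with anti-ANG2 at P19, and 76.8, 122, 86.3 and 130 CPM with IgG at P19. Here 1 anti-ANG2 retina lay inside the IgG range, and the fold was 0.677 (0.495 to 0.925, unadjusted p = 0.0160, edgeR adjusted p = 0.257). Kdr stood at 0.763-fold with anti-VEGFA (0.558 to 1.04) and 0.767-fold with the bispecific antibody (0.561 to 1.05) at P19, against the same IgG retinas.

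Nrp2 measured 10.2, 11.2, 14.3 and 16.02 CPM with anti-VEGFA at P19, and 7.61, 6.92, 4.90 and 9.95 CPM with IgG at P19. The groups did not overlap, at 1.76-fold (0.959 to 3.23, edgeR adjusted p = 0.487). With anti-VEGFA at P19, 2 of 9 members (Vegfb lower and Nrp2 higher) thus stood apart from IgG, set against 5.39% of tested genes. With anti-ANG2 at P17, 1 of 9 did, set against 9.04%: Pgf ran between 1.96 and 2.86 CPM with anti-ANG2 and between 3.19 and 6.24 CPM with IgG, at 0.602-fold (0.249 to 1.45, edgeR adjusted p = 0.844). In TPM the groups of each of these 3 differences overlapped. Vegfc with the bispecific antibody at P19 measured 1.38, 0.742, 1.58 and 0 CPM, and with IgG at P19 1.301, 2.62, 3.49 and 2.23 CPM, at 0.382-fold (0.145 to 0.992, unadjusted p = 0.0514, edgeR adjusted p = 0.609). These groups were split by Ddx3y, at 0 CPM in all 4 bispecific retinas and between 60.3 and 68.1 CPM in all 4 IgG retinas. With a Y-linked covariate the Vegfc difference was -1.45 on the log2 scale (unadjusted p = 0.108, edgeR adjusted p = 1), and the number of all genes called was 0, against 11 without it. Since Y-linked counts split these groups fully, that fit cannot separate sex from antibody, and the loss of calls decides neither.

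**Figure D5:**
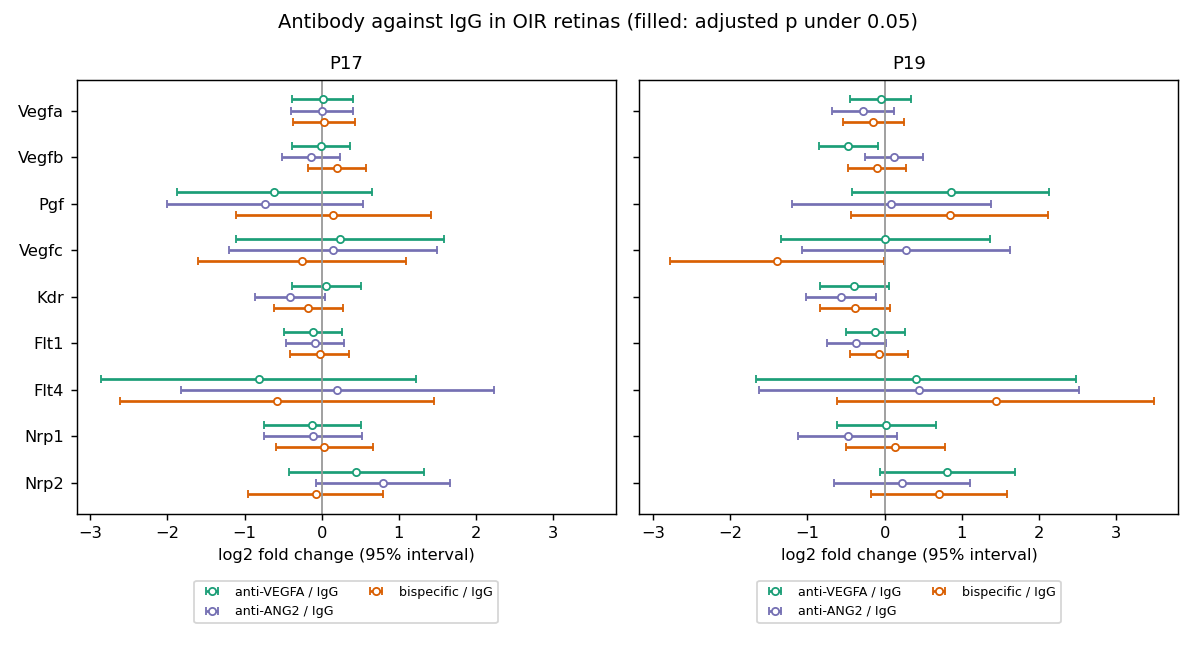
Log2 fold change of each of the 9 genes with each antibody against IgG in OIR retinas at P17 and P19, with 95% intervals, filled where the adjusted p is under 0.05. No point is filled, Vegfa stays between 0.823-fold and 1.02-fold, and the intervals are widest for Flt4, Vegfc and Pgf.

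The pathway lists gave the same count: with each antibody at each age, 0 of 30 other signalling genes, 0 of 23 VEGF-responsive genes, 0 of 21 HIF targets and 0 of 20 endothelial markers were called against IgG. Summed CPM, which was not tested, lay wholly below IgG for some lists. At P19 the 24 listed VEGF-responsive genes summed to 312 to 354 CPM with IgG. They summed to 213 to 281 CPM with anti-VEGFA and 210 to 298 CPM with anti-ANG2. Endothelial markers summed to 91.6 to 124 CPM with IgG and 72.8 to 89.9 CPM with the bispecific antibody. Other signalling genes with anti-ANG2 at both ages and HIF targets with anti-ANG2 at P17 also lay below IgG, and other sums overlapped. Between antibodies, 0 of 9 members were called in each of the 6 comparisons, 3 at each age. At P17 0% of tested genes were called for the bispecific antibody against anti-VEGFA, 0% for the bispecific antibody against anti-ANG2 and 0% for anti-VEGFA against anti-ANG2. At P19 the shares were 0.0553% for the bispecific antibody against anti-VEGFA, 0% for the bispecific antibody against anti-ANG2 and 0.238% for anti-VEGFA against anti-ANG2. Over all tested genes in these 6 comparisons, between 657 and 3940 had an unadjusted p under 0.05, DESeq2 called between 7 and 1076, and limma-trend between 0 and 179. The doses of the bispecific antibody and of either single antibody differ, so those values mix agent and dose.

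The members nearest the threshold between antibodies were Vegfb and Vegfc at P19. Vegfb averaged 32.9 ± 6.15 CPM with anti-VEGFA and 49.6 ± 10.02 CPM with anti-ANG2 (SD, n = 4 each), with no overlap, as for 4.63% of tested genes, at 0.664-fold (95% interval 0.510 to 0.864, edgeR adjusted p = 0.110). DESeq2 called it (adjusted p = 0.0288), and so did edgeR without anti-ANG2 replicate 4 (adjusted p = 0.0385). Vegfc averaged 0.924 ± 0.711 CPM with the bispecific antibody and 2.93 ± 0.720 CPM with anti-ANG2, with no overlap, as for 2.59% of tested genes, at 0.315-fold (0.120 to 0.818, edgeR adjusted p = 0.312). These 2 and Kdr at P17 were the members with an unadjusted p under 0.05 between antibodies. Kdr averaged 120 ± 39.4 CPM with anti-VEGFA and 86.2 ± 18.9 CPM with anti-ANG2 at P17, at 1.39-fold (1.02 to 1.90, unadjusted p = 0.0402, edgeR adjusted p = 1). Ddx3y lay between 66.1 and 92.0 CPM in all 4 of these anti-VEGFA retinas and at 0 CPM in all 4 anti-ANG2 retinas, and with a Y-linked covariate the Kdr difference was 0.66 on the log2 scale (edgeR adjusted p = 1). Here too the groups were split fully, so that fit cannot separate sex from antibody.

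Between the 2 ages, Vegfa was the only member called, and only with anti-ANG2. There it fell to 138 ± 29.6 CPM at P19, against 228 ± 24.9 CPM at P17 (SD, n = 4 each), with all 4 P19 retinas below all 4 P17 retinas, at 0.604-fold (95% interval 0.458 to 0.797, edgeR adjusted p = 0.0251). That is 1 of 9, set against 4.83% of tested genes. In this comparison 2 of 9 members had groups without overlap, set against 10.7% of tested genes. An unadjusted p under 0.05 was found for 3 of 9, set against 4266 of 23495 tested genes. Nrp1 was the second without overlap, between 4.22 and 14.3 CPM at P19 and between 15.4 and 24.6 CPM at P17 (0.580-fold, 0.371 to 0.904, edgeR adjusted p = 0.157), and Vegfb was at 1.36-fold (1.05 to 1.77, edgeR adjusted p = 0.177). On log2(TPM + 1), limma-trend called 2 of 9 (Vegfa and Nrp1, both lower at P19), set against 15.1% of tested genes. The call was lost without any 1 of 6 libraries (P17 replicates 1, 3 and 4 and P19 replicates 1, 2 and 3, adjusted p between 0.0541 and 0.181). In that group every P17 retina was without Ddx3y counts while P19 retinas ran between 0 and 72.9 CPM, and with a Y-linked covariate the adjusted p was 0.101, within a range over all alternatives of 0.00649 to 0.181. The Vegfa fold of P19 over P17 was 0.735 with IgG (0.558 to 0.969, edgeR adjusted p = 1), 0.703 with anti-VEGFA (0.534 to 0.927, edgeR adjusted p = 0.411) and 0.652 with the bispecific antibody (0.495 to 0.859, edgeR adjusted p = 0.516). In control retinas it was 1.01 (0.769 to 1.34). Counts in these 4 conditions were 0 of 9, set against 0.00851% of tested genes with IgG, 0% with anti-VEGFA, 0.0298% with the bispecific antibody and 0.0979% in controls. Groups without overlap were found for 1 of 9 with IgG, set against 3.77% of tested genes, and for 0 in the other conditions. That member was Pgf, between 0.957 and 2.52 CPM at P19 and between 3.19 and 6.24 CPM at P17. At an unadjusted p under 0.05 the member counts were 1 with IgG, 2 with anti-VEGFA, 1 with the bispecific antibody and 0 in controls. Of 23495 tested genes, 1102 had such a p with IgG, 2140 with anti-VEGFA, 1358 with the bispecific antibody and 1413 in controls. DESeq2 and limma-trend called 0 members in all 4.

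Whether an effect differed between the ages was tested directly. The Vegfa effect of OIR at P19 minus that at P17 was -0.46 on the log2 scale (edgeR adjusted p = 0.948, unadjusted p = 0.104), so the lower fold at P19 was not shown to differ. Of the 9 genes 0 were called for the OIR effect, set against 0.00426% of tested genes, and 0 for the effects of anti-VEGFA (0%), anti-ANG2 (0%) and the bispecific antibody (0%). No member had an unadjusted p under 0.05 in these 4 tests or was called by DESeq2 or limma-trend, and over all tested genes between 1055 and 2581 had such a p with edgeR. Over all tested genes edgeR called at most 1, DESeq2 between 5 and 149 and limma-trend between 0 and 8.

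Among 11405 genes with a mean of at least 5 CPM, 3 had group means most like those of Vegfa over the 10 groups, by the root mean square difference of centred log2 CPM. They were Igfbp5, which encodes a binding protein of insulin-like growth factors, at 0.17, the muscle-type glycogen synthase gene Gys1 at 0.17, and Plek, which encodes pleckstrin of platelets and leukocytes, at 0.18. The SD of the Vegfa profile itself was 0.45. The match used the means of IgG and control retinas at both ages, so their differences between these groups follow from the choice and were not tested here. At P17 those differences were 1.14 for Igfbp5, 1.01 for Gys1 and 1.53 for Plek on the log2 scale.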

How the data were processed

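Expression was measured in 40 mouse retinas, 10 groups of 4 libraries. Per the submitters' processing notes, the authors used STAR 2.7.10a and RSEM 1.3.3 with GRCm38.p4 as genome, and which gene models they counted on is not stated there. The deposited expected counts per gene, as RSEM estimates them, were rounded to whole numbers (15.7% of nonzero values were not whole). The deposited TPM values, per the file headers, were used for levels between genes. Library totals ran between 9160000 and 25800000, and normalization factors between 0.74 and 1.28.

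Counts were fitted with edgeR 4.0.16 in R 4.3.3 (trimmed mean of M-values, filterByExpr by group, robust quasi-likelihood), in 1 fit of all 40 libraries without covariates. The filter kept 23495 of 42037 genes and 9 of 9 members. P-values were adjusted by Benjamini-Hochberg over all tested genes within each of 29 comparisons, with no adjustment across comparisons, and genes were called at an adjusted p under 0.05. Intervals of 95% are Wald intervals from the same fit. CPM carry the normalization factors. The fit was run on simulated data for IgG against control at P17 only, with changes set in genes of higher count. That run does not cover genes with few counts or the other comparisons.

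Alternatives were DESeq2 1.42.0, its size factors within edgeR (RLE), no filter, limma-trend (limma 3.58.1) on log2(TPM + 1), a fit to the groups compared alone, a replicate block, pigment epithelium and lens covariates, a Y-linked covariate, and leaving out each library. Samples of equal replicate number did not deviate together: over 32 pairs the correlation of their deviations was between -0.132 and 0.154.

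Members and gene lists were chosen with earlier results of these data known. Named were all 9 members, up to 4 called genes of each list in the comparisons with IgG or control, and the 3 genes with profiles nearest to each called member. Pericyte, glial and other marker lists are otherwise given by counts. Promoter letters are from the RefSeq table for GRCm38.p6.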

Additional observations from a re-analysis of the deposited data

Results flagged for a closer look

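In groups of 4, a single retina stood far from the other 3 in 4 of 90 groups of member CPM values, and chance flags about 1 in 20 groups. Vegfb was 60.8 CPM in bispecific P17 replicate 1, with the other 3 between 40.1 and 42.1 CPM. Kdr was 54.1 CPM in control P19 replicate 3, with the other 3 between 97.8 and 101 CPM. Nrp1 was 8.90 CPM in IgG P17 replicate 4, with the other 3 between 21.6 and 23.8 CPM. Nrp1 was 24.6 CPM in anti-ANG2 P17 replicate 3, with the other 3 between 15.4 and 15.9 CPM. Without the Kdr retina, the Kdr difference of OIR with IgG from control at P19 was 0.06 on the log2 scale, against 0.24 with it, and neither was called. These are 4 different libraries, and none of them is the far retina for more than 1 member. Leaving out each of the other 3 retinas gave no call by edgeR for its gene in any comparison that holds its group.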

How the results depend on the processing

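The Vegfa call in OIR retinas with IgG against controls at P17 held in 7 of 8 alternatives and without each of 8 libraries, and the member count was 0 on log2(TPM + 1). At P19 the count was 0, not 1, with RLE size factors, without a filter, with a Y-linked covariate, on log2(TPM + 1), and without any 1 library (0 to 0). Between antibodies the count was 1 with DESeq2 and 0 to 1 without 1 library, not 0. Between ages it was 0 with a Y-linked covariate, 2 on log2(TPM + 1), where Nrp1 joined Vegfa with anti-ANG2 and 15.1% of all tested genes were called, and 0 to 1 without 1 library, not 1. Against controls the antibody groups had 4 member calls in the count fit, all Vegfa, and 5 on log2(TPM + 1), none Vegfa. No called estimate turned its direction. Equal replicate numbers did not pair the retinas. With a replicate block the member counts were unchanged at 1 for OIR at P17 and 1 at P19, and Vegfa had an edgeR adjusted p of 2.91e-05 at P17 and 0.0306 at P19. The causes were not tested.

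Counts over all genes moved more: DESeq2 called 1062 genes at P17 and 516 at P19 for IgG against control, where edgeR called 555 and 216, and the pigment epithelium and lens covariates left 88 at P17. Of called genes at P17, 89.4% were higher in the count fit and 44.5% on log2(TPM + 1). Counts were lowest for Pgf, Vegfc and Flt4, with medians of 42, 41.9 and 29 per library, and the part of counting error in their spread was not tested.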
